A study of Mus musculus with 16 samples.

Results

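The 38 cell cycle genes described here are markers and machinery of dividing cells, chosen by name, and all 38 were found among the 55487 gene symbols listed for spinal cord cells of mice, of which 41193 had a count. A core of 25 of them, mainly genes of G2 and mitosis together with Rrm2, a gene of S phase, was set apart from 13 others, which act earlier or also have other roles. The counts are unique molecular identifiers (UMIs), each standing for 1 captured RNA molecule, in 18203 cells with 53347673 UMIs. The 38 genes together had 31172 UMIs, of which Stmn1 and Hmgb2 gave all but 13611, and the core had 6881.

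Cells were dissociated from tissue around a cervical dorsal column lesion and made into a 10x Genomics 3′ library for each of 16 mice. Mice labelled Rykfl/fl,GFAPcreERT2 are called cKO and mice labelled Ryk+/+,GFAPcreERT2 are called WT; both carried GFAPcreERT2, were given tamoxifen, and were 8 to 10 weeks old. Each condition had 2 mice, either uninjured (sham in the sample labels) or taken at 1 d, at 7 d or at 14 d. The study asked how loss of the receptor Ryk from astrocytes alters the response to injury, and a human GFAP promoter drives the Cre, so deletion depends on which cells use that promoter. All suspensions were made in the presence of actinomycin D, which blocks transcription, and dead cells were removed.

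Depth differed widely between mice. WT 1 d replicate 2 had 1 cell and was left out, so that 15 mice remained, with 536263 to 9008729 UMIs each. Replicate 1 of both genotypes at 1 d and 7 d was shallow, with medians of 414 to 548 UMIs per cell, against 1040.5 to 3637 in the other 11 mice. These 4 shallow libraries also shared cell barcodes. Among their 5237 cells, 335 carried a barcode found in another of the 4, giving 341 pairs, of which 315 (92.4%) lay in the same cluster, whereas the 12965 cells of the other 11 mice gave 28 pairs. Of the cells sharing a barcode, 0 had UMIs of 5 or more core genes. Conditions were taken from the sample titles, but for 6 of the replicate 2 mice the cell names state a different one, and comparisons were also made with those conditions.

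Ryk, the targeted gene, was counted in every mouse. In Clusters 2, 5 and 7, labelled as astrocytes, it had 123 and 54.0 counts (UMIs) per 1e6 UMIs, or CPM, in the WT uninjured mice, 101 in the WT mouse at 1 d, 157 and 116 in WT 7 d, and 105 and 108 in WT 14 d. In the cKO mice it had 66.1 and 85.1 CPM when uninjured, 23.0 and 69.0 (1 d), 90.1 and 119 (7 d), and 121 and 123 (14 d). The ranges of the genotypes overlapped. The sources used here do not name the deleted exon, and 3′ tags may lie outside it, so these counts do not check the genotypes.

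A cell divides by copying its DNA once and then parting the copies. E2F factors switch on the genes of DNA synthesis, such as those of the Mcm helicase and of nucleotide supply, and a later wave of genes, controlled through the DREAM and MuvB complexes, builds the spindle, loads kinetochores and drives mitosis. In the adult spinal cord most neurons have left the cycle for good, while oligodendrocyte precursor cells go on dividing, and microglia and other glia are known to divide after injury.

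Most of the 38 genes were highest in a small cluster. Cluster 17, which carries the deposited label RBC, held 119 cells (0.654% of all) and 1.19% of all UMIs, but 3919 of the 6881 core UMIs (57.0%). The core stood at 6175 CPM there, against 27.6 CPM in Cluster 7 (an astrocyte cluster), the lowest, and 334 CPM in Cluster 16 (labelled myeloid cells), the next highest. Of the 38 genes, 37 had their highest CPM in Cluster 17, with Stmn1 as the exception. The share of all genes that are highest there is not given. More than 50% of a gene's UMIs lay in Cluster 17 for 13 of the 38 genes (34.2%), against 67 of the 18662 genes with at least 68 UMIs (0.359%), and the median share was 40.9% against 0.667%. Since clusters were formed on the same counts, the difference was not tested.

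**Figure D1:**
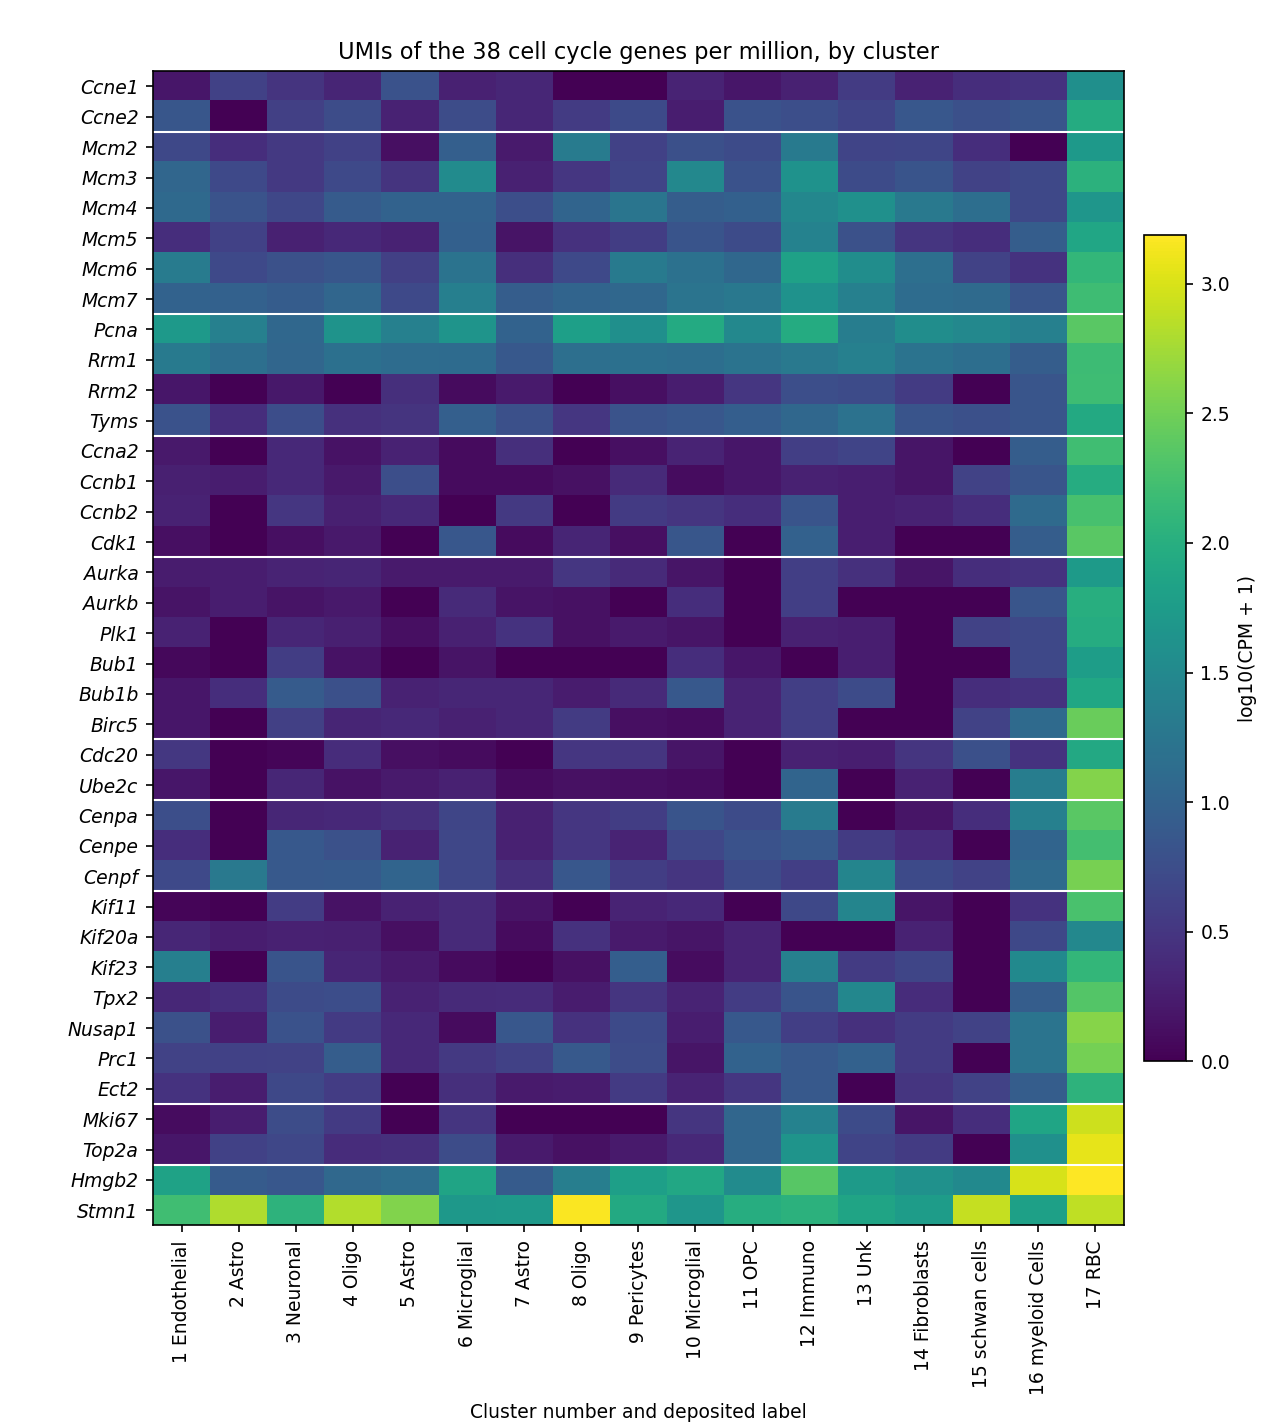
CPM of each of the 38 genes (rows, grouped by role between the white lines) in each of the 17 clusters (columns, with their deposited labels), on a log10 scale after adding 1. Cluster 17 is the brightest column for 37 of the 38 genes, and Stmn1 is brightest in Cluster 8.

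Members that act before DNA is copied had up to 25.5% of their UMIs in Cluster 17. The cyclins E, which open S phase with their kinase, had 22.6% (Ccne2, 257 UMIs) and 25.5% (Ccne1, 94 UMIs) of their UMIs in Cluster 17. The 6 genes of the Mcm2-7 helicase, which is loaded on DNA before it is copied, had 5.33% (Mcm4) to 23.0% (Mcm5), with 209 to 732 UMIs. For Mcm6 and Mcm7 the next highest cluster was Cluster 12, labelled Immuno, at 65.7 and 40.6 CPM, against 126 and 156 CPM in Cluster 17. Cluster 12 was also among the 3 clusters with the highest core level, at 194 CPM.

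Genes of replication and nucleotide supply were split. Pcna, the sliding clamp of DNA polymerases that also serves in DNA repair, had 2181 UMIs, of which 6.79% lay in Cluster 17. Rrm1, the large subunit of ribonucleotide reductase, had 11.7% and Tyms, which makes thymidylate, had 16.4%. Rrm2, the small subunit that is made in S phase, had 68.5%. It stood at 158 CPM in Cluster 17 and at 0.873 CPM in all other cells together, whereas Rrm1, its partner in the enzyme, had 153 and 13.9 CPM.

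The cyclins and the kinase of S phase to mitosis had most of their UMIs in Cluster 17. The share was 51.3% for Ccnb1, 58.9% for Ccnb2, 65.0% for Cdk1, the kinase that these cyclins activate, and 67.3% for Ccna2. Among mitotic kinases and checkpoint genes the share was 25% for Bub1b, 40% for Aurka, 48.7% for Bub1, 54.6% for Plk1, 64.9% for Aurkb and 72.0% for Birc5, a subunit of the complex of Aurkb. Both genes of that complex were thus higher than the checkpoint kinase Bub1b. Bub1b had its next highest level, 7.31 CPM, in the neuronal Cluster 3.

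Ube2c, the ubiquitin-conjugating enzyme of the anaphase-promoting complex, was the most concentrated of the 38, with 83.2% of its 303 UMIs in Cluster 17. Its level was 397 CPM there and 0.968 CPM in the other cells, a ratio of 410. Cdc20, which activates the same complex, had 47.3% of 112 UMIs. The centromere and kinetochore genes Cenpe, Cenpf and Cenpa had 39.0%, 41.8% and 46.6%.

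Genes of the spindle and of cytokinesis ranged from 17.4% for Kif23, a motor of the central spindle, to 59.1% for Kif11, the motor that pushes spindle poles apart. Kif20a (27.9%), Ect2 (39.7%), Tpx2 (47.8%), Prc1 (50%) and Nusap1 (56.5%) lay between them. Kif23 was unusual among the core genes in endothelial cells, where it had 247 of its 459 UMIs and 22.6 CPM, against 0.274 CPM for Mki67. A gene of cytokinesis was thus counted in 190 of 4201 endothelial cells while 3 of the 4201 had a UMI of Mki67.

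Mki67, which coats mitotic chromosomes, and Top2a, which untangles them, had 77.9% of 723 UMIs and 80.7% of 919 UMIs in Cluster 17. Mki67 stood at 887 CPM there, followed by 74.2 in Cluster 16, 25.1 in Cluster 12 and 10.2 in Cluster 11, labelled OPC. Top2a stood at 1169 CPM, followed by 43.5 in Cluster 12, 39.1 in Cluster 16 and 10.2 in Cluster 11. Both genes therefore ranked the same 4 clusters highest. In the clusters labelled as astrocytes Mki67 had 1 UMI in Cluster 2 (1213 cells), 0 in Cluster 5 (1758 cells) and 0 in Cluster 7 (1012 cells). A single cell could weigh heavily, since the Top2a of Cluster 12 came to 37 of 45 UMIs from 1 cell.

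Hmgb2, a chromatin protein, and Stmn1, which destabilises microtubules and is also made by neurons and glia that do not divide, are wider in use. Hmgb2 had 26.4% of 3685 UMIs in Cluster 17, with 1535 CPM there and 980 CPM in Cluster 16. Stmn1 had 3.52% of 13876 UMIs in Cluster 17 and was highest in Cluster 8, an oligodendrocyte cluster, at 1489 CPM, followed by 801 CPM in Cluster 15, labelled as Schwann cells.

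The leading members of most clusters were these broad genes and Pcna. Stmn1, Hmgb2 and Pcna, in some order, led the endothelial Cluster 1 (159, 68.2 and 51.3 CPM), the astrocyte Cluster 5 (377, 12.6 and 23.1), the microglial Cluster 6 (49.6, 70.8 and 43.1) and Cluster 10 (46.8, 79.4 and 88.7), and the oligodendrocyte Cluster 8 (1489, 22.3 and 61.4). They also led the pericyte Cluster 9 (86.0, 61.1 and 37.6), the OPC Cluster 11 (94.6, 33.3 and 29.6), Cluster 12 (109, 226 and 90.8), the fibroblast Cluster 14 (56.0, 40.3 and 35.1) and Cluster 15 (801, 31.3 and 29.6). Stmn1 and Pcna were joined by Cenpf in Cluster 2 (641, 23.1 and 18.3 CPM), by Rrm1 in Cluster 3 (114, 10.7 and 10.4) and in the oligodendrocyte Cluster 4 (656, 42.2 and 14.1), and by Mcm7 in Cluster 7 (50.9, 9.12 and 7.68). In Cluster 13, which has the label Unk and all 4 ependymal markers at more than 2 times their level in the other cells, Stmn1 (71.2), Hmgb2 (53.9) and Mcm4 (38.2) led. Mki67 was among the leading 3 only in Cluster 16, with Hmgb2 at 980, Mki67 at 74.2 and Stmn1 at 64.4 CPM, and in Cluster 17, with Hmgb2 at 1535, Top2a at 1169 and Mki67 at 887.

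Cluster 17 did not look like red blood cells alone. Haemoglobin made up at least 20% of the UMIs in 43 of its 119 cells, 1% to 20% in 15 and under 1% in 61 (limits chosen after seeing the data). All 3 red blood cell markers were more than 2-fold above the other cells, with Hbb-bs the most abundant and a summed level of 176171 CPM, but so were 2 of the 4 OPC markers, with a summed 1158 CPM and Lhfpl3 the most abundant, 2 of 5 lymphocyte markers (summed 64.6 CPM), 1 of 4 neutrophil markers (3577 CPM) and 1 of 6 macrophage markers (239 CPM). Of the 7 microglial markers 0 were more than 2-fold above the other cells (summed 1697 CPM). A single cell held 2238 UMIs of the neutrophil markers, and a single cell held 448 UMIs of the OPC markers, in a cluster of 634669 UMIs. Neither level is therefore taken as a trait of the cluster at large. Of the cells with under 1% haemoglobin, 36 had UMIs of at least 2 core genes. The cluster is therefore called by its number here.

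Cells with UMIs of at least 5 core genes, a limit chosen after seeing the data, numbered 50 of 18203 (0.275%, 95% exact binomial interval 0.204% to 0.362%; such intervals, and floors of 3 counts, cover counting error only). They held 4151 core UMIs (60.3%), and the 10 cells with the most core UMIs held 3021 (43.9%). Of the 50, 33 lay in Cluster 17, 5 in Cluster 16, 4 in Cluster 3 and 3 in Cluster 12. The 5 others lay 1 each in Clusters 5, 6, 9, 11 and 14. At the other end, 1565 cells had UMIs of exactly 1 core gene, 11 of them in Cluster 17.

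Among the 33 cells of Cluster 17, markers of several cell types were found. Haemoglobin was under 1% of UMIs in 26 of them and at least 20% in 7. At least 3 markers were found for microglia in 8 cells from 6 mice, for OPCs in 6 cells from 5 mice, for astrocytes in 4, for endothelial cells in 2, and for neutrophils and fibroblasts in 1 each, while 7 cells met this for no list and 13 for 2 lists or more. The background matters for these counts. Among cells outside the microglial clusters and Cluster 17, 2.51% had at least 3 microglial markers (7.78% of those with 3000 UMIs or more), and 0.871% (3.15%) outside the OPC cluster had 3 OPC markers. Oligodendrocyte markers, met in 15 of the 33 cells, were met in 38% of cells outside the oligodendrocyte clusters, so they tell little about these cells. The same holds for astrocyte markers, met in 13.9% of cells outside their clusters (28.4% of those with 3000 UMIs or more), and for endothelial markers, met in 3.73% (9.01%). The 33 cells were also deep, with a median of 7312 UMIs against 1339 in the whole cluster; doublets among them were not tested.

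**Figure D2:**
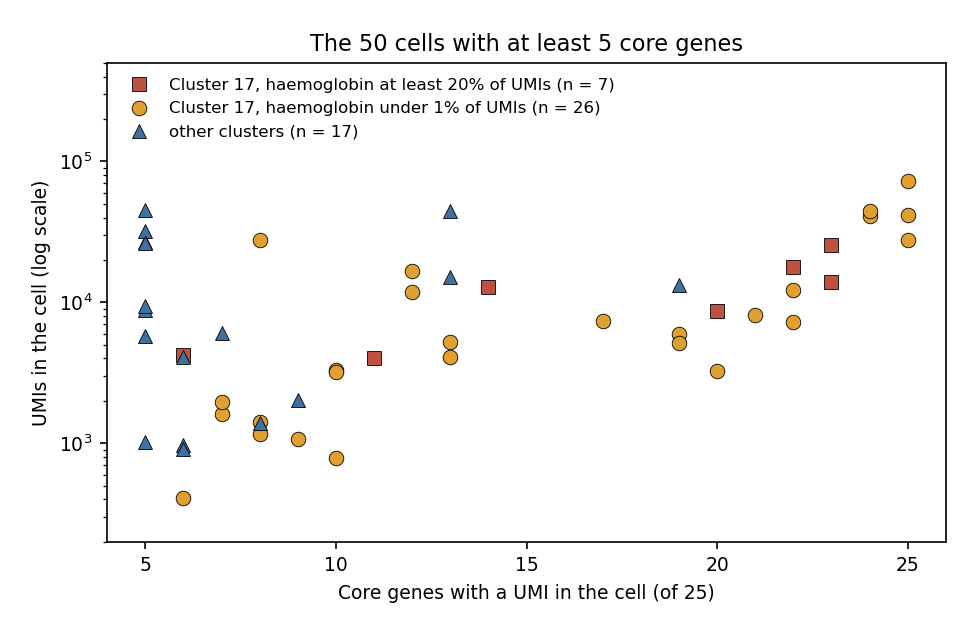
Each of the 50 cells with at least 5 core genes, by the number of core genes with a UMI (of 25) and the UMIs in the cell on a log scale. Squares are 7 cells of Cluster 17 with at least 20% haemoglobin, circles are 26 cells of Cluster 17 with under 1%, and triangles are 17 cells of other clusters; all 3 cells with 25 core genes had under 1%.

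Mki67 and Top2a were often found in the same cells. Over all cells, 42 of the 135 with a UMI of Mki67 also had Top2a (31.1%), against 95 of the 18068 without Mki67. Depth differed between those sets, with medians of 5669 and 1164 UMIs; among cells of at least 3000 UMIs the shares were 32.3% and 1.32%.

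UMIs of at least 2 core genes were found in 377 cells (2.07%). The share was 40.3% in Cluster 17 (48 of 119 cells, median 1339 UMIs per cell), 9.24% in Cluster 16, 9.23% in Cluster 13, 5.21% in Cluster 12 and 2.04% in the OPC Cluster 11 (median 1000 UMIs). Neurons do not divide, and their Cluster 3, with a median of 1848 UMIs, had 3.78%, so shares of that size are not taken here as a sign of dividing cells. When each cell was thinned to 1000 UMIs, which left out 8150 cells, the share became 46.3% in Cluster 17 (31 of 67 cells), 6.82% in Cluster 16, 2.07% in Cluster 12, 1.70% in Cluster 13, 0.627% in Cluster 11 and 0.234% in Cluster 3. Thinned to 500 UMIs, the share was 30.3% in Cluster 17 (33 of 109 cells) and 0.0433% in Cluster 3. Cluster 17 thus kept its distance from neurons at both depths. In the clusters labelled as astrocytes 0 of 1213 cells (Cluster 2, 95% exact binomial interval up to 0.304%), 6 of 1758 (Cluster 5) and 4 of 1012 (Cluster 7) had 2 core genes. The label of Cluster 2 is less clear than that of Cluster 7. Its astrocyte markers summed to 7769 CPM, with 3 of 6 more than 2-fold above the other cells, and its oligodendrocyte markers to 20945 CPM. Cluster 5 was mixed too. Its astrocyte markers summed to 14687 CPM, with 5 of 6 more than 2-fold above, and its oligodendrocyte markers to 13318 CPM, with 2 of 5.

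The part of the core UMIs that lay in Cluster 17 ran from 0% to 85% between mice. The level of the core in all cells was 46.2 and 264 CPM in WT uninjured mice, 181 and 33.1 in cKO uninjured, 97 in WT 1 d, 76.5 and 66.7 in cKO 1 d, 87.7 and 55.4 in WT 7 d, 84.1 and 261 in cKO 7 d, 102 and 53.4 in WT 14 d, and 208 and 101 in cKO 14 d. Replicates lay furthest apart in both uninjured groups and in cKO 7 d, and closest in cKO 1 d. Without Cluster 17, a choice made after seeing the data, the 15 mice lay between 31.7 and 76.4 CPM. WT uninjured replicate 2, with 10 of the 50 cells, then had 41.1 CPM, and cKO 7 d replicate 2, with 13 of them, had 60.3. In cKO 14 d replicate 1 a single cell held 578 of the 1367 core UMIs (42.3%), in cKO 14 d replicate 2 a single cell held 316 of 735 (43.0%), and in cKO uninjured replicate 1 a single cell held 90 of 140 (64.3%).

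**Figure D3:**
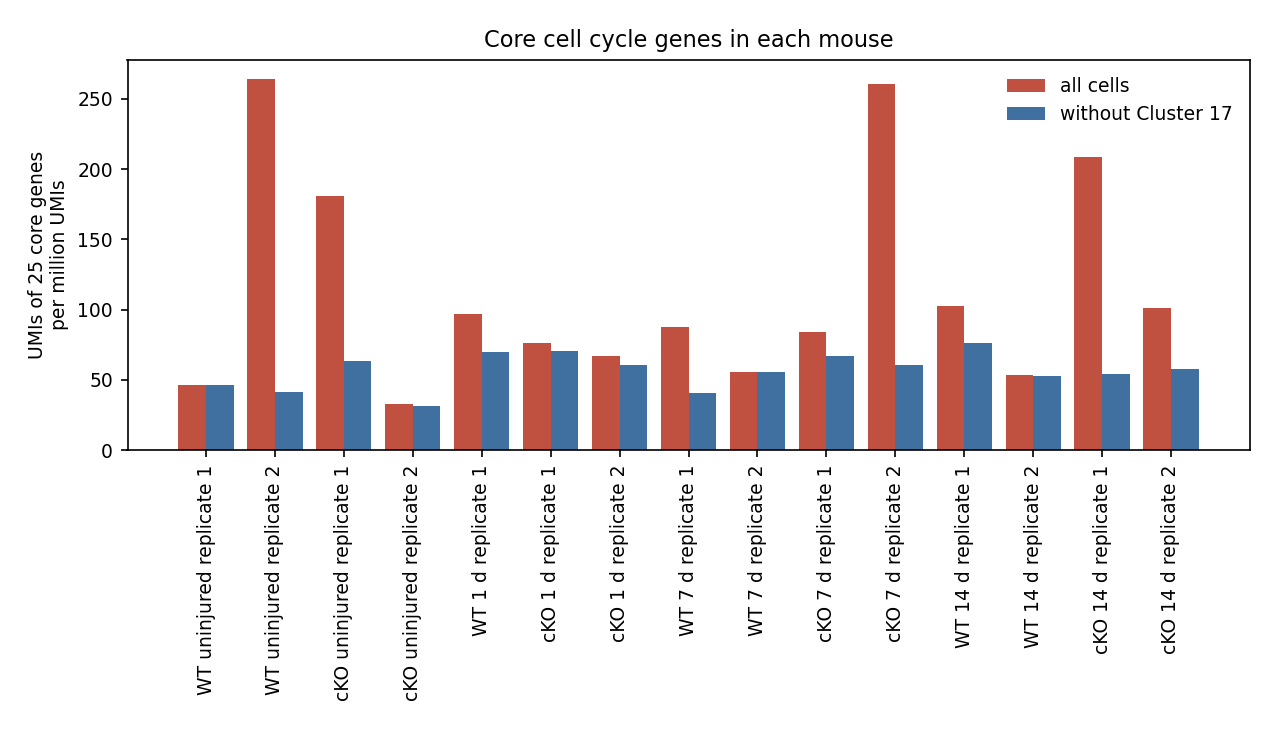
UMIs of the 25 core genes scaled to CPM in each of 15 mice, over all cells (red) and without Cluster 17 (blue). The mice span 33.1 to 264 over all cells and 31.7 to 76.4 without Cluster 17.

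Mki67 in all cells had 0 and 15.1 CPM in WT uninjured mice, 10.3 and 1.53 in cKO uninjured, 5.59 in WT 1 d, 3.00 and 4.35 in cKO 1 d, 4.62 and 2.97 in WT 7 d, 6.47 and 42.5 in cKO 7 d, 11.1 and 1.82 in WT 14 d, and 23.5 and 6.61 in cKO 14 d. The groups overlapped, and the highest mouse was cKO 7 d replicate 2. Injured mice averaged 10.2 ± 12.3 CPM (SD, n = 11) and uninjured mice 6.74 ± 7.20 (n = 4), with p = 0.675 in a two-sided exact permutation test over mice. After injury the cKO mean over time points was 14.4 CPM and the WT mean 5.28, with p = 0.269 in an exact permutation of the genotype within time points (6 and 5 mice). The smallest p these 2 tests can give is 0.000733 and 0.00926. Neither uses the authors' batch, which is the replicate number. Within batches cKO was above WT in each pair at 7 d (6.47 and 4.62, 42.5 and 2.97 CPM) and 14 d (23.5 and 11.1, 6.61 and 1.82). It was below WT in the pair at 1 d (3.00 and 5.59). The uninjured pairs went opposite ways (10.3 and 0, 1.53 and 15.1). Without Cluster 17, chosen after seeing the data, cKO was below WT in each pair at 14 d (4.49 and 6.89, 1.52 and 1.71). It was then still above WT at 7 d (4.07 and 1.56, 5.25 and 2.97) and below at 1 d. The WT mouse of the first 7 d pair had 3 UMIs in all cells, at its floor, and 1 UMI without Cluster 17. The pairs were not tested, and leaving that cluster out selects on this gene. Without cKO 7 d replicate 2 the difference of injured minus uninjured mice went from 3.48 to 0.252 CPM, and that of cKO minus WT from 9.13 to 3.12 CPM.

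Top2a was highest in the same 3 mice as Mki67, in another order. It had 0.325 and 40.1 CPM in WT uninjured, 23.2 and 2.04 in cKO uninjured, 9.32 in WT 1 d, 4.50 and 5.00 in cKO 1 d, 7.70 and 3.30 in WT 7 d, 7.28 and 39.5 in cKO 7 d, 12.7 and 1.37 in WT 14 d, and 34.9 and 16.5 in cKO 14 d. The mean was 12.9 ± 12.8 CPM in 11 injured and 16.4 ± 18.9 in 4 uninjured mice (SD, exact permutation p = 0.651), and 18 in cKO against 7.28 in WT after injury (exact permutation p = 0.204). Over all 12 such tests of Mki67 and Top2a, in all cells and in the microglial and astrocyte clusters, the smallest adjusted exact permutation p was 0.540. Within those clusters nearly all values were at or under the floor of 3 counts, with Mki67 in cKO 14 d replicate 1 and Top2a in cKO 1 d replicate 2, both in Clusters 6 and 10, as the exceptions. In all cells the differences changed without Cluster 17, a choice made after seeing the data. That of injured minus uninjured mice then turned from -3.52 to 3.15 CPM for Top2a and was 2.25 for Mki67. Since Cluster 17 was formed on the same counts and held most UMIs of both genes, leaving it out selects on the genes measured, and no test is drawn from it. Without WT uninjured replicate 2, the difference of Top2a was 4.38 (exact permutation p = 0.679). The difference of cKO minus WT without Cluster 17 was -0.157 CPM for Mki67 and -0.199 for Top2a.

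Within cell types the counts were low. In Clusters 2, 5 and 7 together, Mki67 had 1 UMI in WT uninjured replicate 2 and 0 in the 14 other mice, and the floor of 3 counts stood between 1.98 CPM in cKO 7 d replicate 2 and 69.0 CPM in cKO 1 d replicate 1. Mki67 was thus under the floor in these 3 clusters in all 15 mice. This holds for the clusters and is not shown for astrocytes at large. Of the 50 cells with at least 5 core genes, 33 lay in Cluster 17 and 1 in Cluster 5. Whether astrocytes were among those in Cluster 17 was not tested. In the microglial Clusters 6 and 10 Mki67 had 0 UMIs in 3 uninjured mice, 2, 1 and 2 UMIs in the 3 mice at 1 d, and 0 to 7 UMIs in the mice at 7 d and 14 d. Injured mice averaged 5.77 ± 8.18 CPM (SD, n = 11) against 0 in 3 uninjured mice (exact permutation p = 0.310). The floors of the uninjured mice, at 11.6, 22.5 and 34.5 CPM, were all above that mean, so this comparison cannot show or exclude a difference of that size. In OPCs, named after their values were seen, Mki67 had 0 UMIs in the 6 mice uninjured or at 1 d (floors 22.9 to 166 CPM) and UMIs in 7 of the 8 mice at 7 d and 14 d, at 4.58 to 41.6 CPM. Those levels overlap the floors, and the difference was not tested.

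Stmn1, Hmgb2 and Pcna, the 3 members with the most UMIs, were counted in every mouse. Stmn1 in all cells had 308 and 503 CPM in WT uninjured, 275 and 451 in cKO uninjured, 339 in WT 1 d, 369 and 220 in cKO 1 d, 333 and 146 in WT 7 d, 370 and 262 in cKO 7 d, 447 and 177.5 in WT 14 d, and 223 and 199.6 in cKO 14 d. Uninjured and injured mice overlapped. Hmgb2 had 48.5 and 181 CPM in WT uninjured, 53.0 and 29.0 in cKO uninjured, 70.9 in WT 1 d, 57.0 and 52.8 in cKO 1 d, 33.9 and 44.2 in WT 7 d, 53.4 and 125 in cKO 7 d, 112 and 29.7 in WT 14 d, and 63.0 and 50.7 in cKO 14 d. Its 2 highest mice, WT uninjured replicate 2 and cKO 7 d replicate 2, had 85% and 77.5% of their core UMIs in Cluster 17. Of Hmgb2 itself, that cluster held 225 of 383 and 416 of 1128 UMIs in these mice. Without Cluster 17 they had 77.2 and 81.3 CPM of Hmgb2. Pcna had 50.4 and 33.5 CPM in WT uninjured, 24.5 and 21.4 in cKO uninjured, 93.2 in WT 1 d, 78.0 and 42.8 in cKO 1 d, 61.6 and 35.3 in WT 7 d, 48.5 and 42.4 in cKO 7 d, 26.0 and 32.7 in WT 14 d, and 54.7 and 38.4 in cKO 14 d.

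Pcna rose in the microglial clusters 1 d after injury. These pool Clusters 6 and 10, where Pcna stood at 43.1 and 88.7 CPM over all mice, and the mix of the clusters at each time is not given. In the pooled clusters Pcna had 23.3 and 52.6 CPM (6 and 7 UMIs) in WT uninjured mice. It had 11.5 CPM (1 UMI) in the 1 cKO uninjured mouse with at least 10 such cells. At 1 d it had 263 CPM (19 UMIs) in WT and 144 and 136 CPM (14 and 56 UMIs) in cKO, so all 3 mice at 1 d lay above all 3 uninjured ones, and above the floors of 3 counts in those mice (11.6, 22.5 and 34.5 CPM). At 7 d the values were back at 48.1 and 45.7 CPM in WT and 27.2 and 43.1 in cKO, and at 14 d they were 38.6 and 63.5 in WT and 79.9 and 72.4 in cKO. The fitted log2 fold change at 1 d was 3.13 (SE 0.53, adjusted p = 0.0131 by edgeR). It gives both genotypes equal weight, and the 1 UMI of the cKO uninjured mouse is under that mouse's floor of 34.5 CPM, so the size of the rise is not well determined; without that mouse it was 2.73. Pcna was the only one of 17 members tested there that was called, among 23 of 9268 genes called in all (0.248%), and DESeq2 also called it (adjusted p = 0.0176; 1.01% of genes called). Of the 17 members, 7 were under an unadjusted p of 0.05, as were 13.8% of all 9268 genes. Among the 7 were the helicase subunits Mcm6 (adjusted p = 0.0700 by edgeR) and Mcm5 (0.120), which did not pass, and which edgeR called only with no filter on low counts (0.59% of genes called). Mcm6 had 97 CPM in the WT mouse at 1 d and a mean of 67.7 CPM in cKO, against 5.82 CPM in WT uninjured and 0 UMIs in cKO uninjured, and since that group was at 0 no fold change is given. In the oligodendrocyte Clusters 4 and 8, which were not tested, Pcna had 30.1 and 28.2 CPM in WT uninjured and 11.6 and 24.0 in cKO uninjured, 120 in WT 1 d and 96.0 and 54.6 in cKO 1 d, 64.7 and 22.8 in WT 7 d, 70.8 and 62.0 in cKO 7 d, 28.8 and 38.7 in WT 14 d, and 57.5 and 53.2 in cKO 14 d. There the shallow replicate 1 was above replicate 2 in cKO 1 d (96.0 and 54.6), WT 7 d (64.7 and 22.8) and cKO 7 d (70.8 and 62.0). The WT mouse at 1 d was also shallow, and whether depth bears on these values was not tested. In neither set of clusters were values above those of the uninjured mice limited to 1 d. In Clusters 6 and 10, 63.5 CPM in WT and 79.9 and 72.4 in cKO at 14 d also lay above them, while 38.6 in WT did not.

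**Figure D4:**
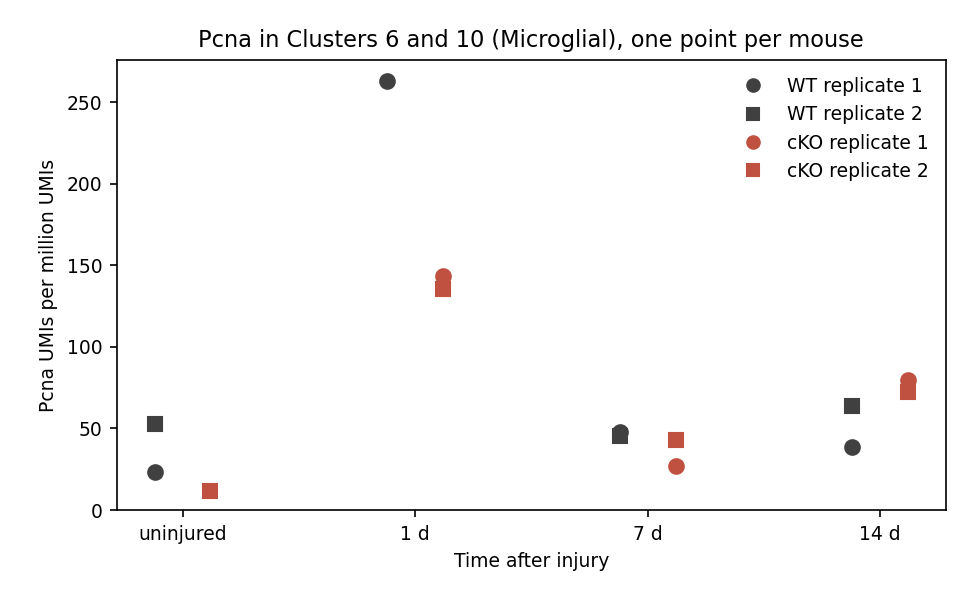
Pcna CPM in Clusters 6 and 10 (labelled Microglial) in each of 14 mice by time after injury, with WT in grey and cKO in red, replicate 1 as circles and replicate 2 as squares. The 3 mice at 1 d lie between 136 and 263, above the 11 others at 11.5 to 79.9.

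The call of Pcna depended on few mice. It was lost without WT 1 d replicate 1 (log2 fold change 3.56, adjusted p = 0.521 by edgeR), without cKO 1 d replicate 2 (3.07, 0.0656) and without cKO uninjured replicate 2 (2.73, 0.0823), with the 4 shallow libraries left out together (3.63, 0.647), and when conditions followed the cell names (1.65, 0.457). In these clusters WT at 1 d and cKO uninjured are a single mouse each, which are assumed to vary like the other groups, and leaving out either removes its whole group. The WT mouse at 1 d and cKO 1 d replicate 1 are both among the 4 libraries that share barcodes. Over all alternatives the adjusted p ran from 0.000594 to 0.647.

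In the other comparisons after injury edgeR called 0 members with its filter on low counts. With no filter it called Stmn1, lower, in Clusters 2, 5 and 7 at 1 d (0.243% of all genes called) and in endothelial cells at 7 d (0.53%). In all cells, with the filter, where edgeR tested 37 members among 18814 genes, it called 0 members at 1 d (0.0266% of all genes called), and also 0 at 7 d (0%) and 0 at 14 d (0%), with 4, 1 and 1 members under an unadjusted p of 0.05, and DESeq2 called 0, 0 and 0. The microglial clusters had 0 members called by edgeR at 7 d (0.108% of genes called) and 0 at 14 d (0.345%), with 1 and 2 under an unadjusted p of 0.05, and DESeq2 called 0 and 0. Of genes of DNA synthesis, Pcna itself had a log2 fold change of 1.63 at 14 d in these clusters (adjusted p = 0.243 by edgeR). In Clusters 2, 5 and 7 edgeR tested 6 members and called 0 at 1 d (0.0765%), then 0 at 7 d (0%) and 0 at 14 d (0%), with 1, 1 and 0 under an unadjusted p of 0.05, and DESeq2 called 0, 0 and 0. In endothelial cells edgeR tested 11 members and called 0 at 1 d (0.0091%), then 0 at 7 d (0%) and 0 at 14 d (0%), with 0, 2 and 1 under an unadjusted p of 0.05, and DESeq2 called 0, 0 and 0. The lowest unadjusted p in endothelial cells was that of the microtubule regulator Stmn1 at 7 d, with a log2 fold change of -1.33 (adjusted p = 0.546 by edgeR with the filter). In OPCs edgeR tested 3 members and called 0 at 1 d (0%), then 0 at 7 d (0%) and 0 at 14 d (0%), with 0, 0 and 0 under an unadjusted p of 0.05, and DESeq2 called 0, 0 and 0. Over all genes, 2.87% to 10.6% were under an unadjusted p of 0.05 in these comparisons. Most mitotic genes did not reach the filter on low counts within a cell type, so these fits say little about them.

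Between genotypes, edgeR called 0 members with its filter on low counts, and 2 without it, Mki67 and Top2a in all cells at 7 d, where 111 of 41193 genes were called (0.269%). In all cells, with the filter, edgeR called 0 of 37 members in cKO against WT over the 3 times after injury (0% of all genes called) and 0 at 7 d (0%), with 1 and 1 under an unadjusted p of 0.05, and DESeq2 called 0 and 0. The fitted values leaned to cKO at 7 d, with 35 of 37 members above 0 and a median log2 difference of 1.08, against 0.03 over all genes. The share of all genes above 0 is not given. Many core UMIs came from the same few cells, so the 37 members are not separate results. In cKO 7 d replicate 2, Cluster 17 held 1821 of the 2349 core UMIs. Without Cluster 17, a choice made after seeing the data, 30 members passed the filter and 21 of them lay above 0, with a median log2 difference of 0.24. At 7 d edgeR called 0 of the 30 (0% of all genes called), with 0 under an unadjusted p of 0.05. Since Cluster 17 was formed on the same counts, leaving it out selects on these genes, and nothing is read from those 0 calls. The cause of the lean was not tested. The number of called members was 0 in Clusters 6 and 10 (17 tested; 0% and 0% of genes called over the 3 times and at 7 d), with 0 and 0 under an unadjusted p of 0.05 in edgeR and 0 and 0 called by DESeq2. It was 0 in Clusters 2, 5 and 7 (6 tested; 0% and 0%), with 1 and 1 under an unadjusted p of 0.05 in edgeR and 0 and 0 called by DESeq2. In endothelial cells (11 tested; 0% and 0%) and OPCs (3 tested; 0% and 0%) edgeR called 0 members, with 0 under an unadjusted p of 0.05, and DESeq2 called 0. Over all genes, 0.856% to 4.3% were under an unadjusted p of 0.05 in these genotype comparisons.

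The promoters of the 38 genes were searched for motifs of cell cycle control, since 50 cells held UMIs of at least 5 core genes each. RefSeq windows of 300 bases around the start of transcription (build GRCm38.p6) were matched by symbol for 31 of the 38 genes; Aurkb, Ccna2, Ccne2, Kif20a, Mcm4, Stmn1 and Tpx2 had no entry used here. The CHR element (TTTGAA or TTTAAA, on either strand), through which DREAM and MuvB act, was in the window of 23 of the 31 genes (74.2%), of 19 of 21 core genes (90.5%) and of 4 of 10 others (40.0%), against 27.6% of all 32851 windows. The CCAAT box, bound by NF-Y (CCAAT, on either strand), was found for 27 genes (87.1%), against 37.4% of windows. An E2F motif (TTTCGCGC, TTTGGCGC, TTTCCCGC or TTTGCCGC, on either strand) was found for 5 genes (16.1%), namely Cdk1, Mcm3, Mcm5, Mcm6 and Mcm7, against 2.26% of windows. A match is a description of letters and not a binding site. The 4 windows below belong to the core genes with a CHR element that had the most UMIs, printed to show how CHR elements and CCAAT boxes, both in capitals, lie together: Top2a at chr11:99024140-99024439, Mki67 at chr7:135716330-135716629, Cenpf at chr1:189688037-189688336 and Kif23 at chr9:61946750-61947049, all on the minus strand and written 5′ to 3′.
Top2a: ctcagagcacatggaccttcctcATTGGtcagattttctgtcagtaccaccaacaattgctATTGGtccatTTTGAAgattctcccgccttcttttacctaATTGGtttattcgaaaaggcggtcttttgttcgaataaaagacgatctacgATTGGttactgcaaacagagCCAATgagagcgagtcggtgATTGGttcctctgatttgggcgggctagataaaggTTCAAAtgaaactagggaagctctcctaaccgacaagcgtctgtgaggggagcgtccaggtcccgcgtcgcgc
Mki67: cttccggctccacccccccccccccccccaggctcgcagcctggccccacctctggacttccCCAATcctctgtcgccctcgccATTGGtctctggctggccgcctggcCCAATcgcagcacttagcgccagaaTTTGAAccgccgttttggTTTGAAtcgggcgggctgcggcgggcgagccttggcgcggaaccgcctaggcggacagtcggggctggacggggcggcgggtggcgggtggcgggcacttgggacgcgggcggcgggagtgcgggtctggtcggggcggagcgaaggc
Cenpf: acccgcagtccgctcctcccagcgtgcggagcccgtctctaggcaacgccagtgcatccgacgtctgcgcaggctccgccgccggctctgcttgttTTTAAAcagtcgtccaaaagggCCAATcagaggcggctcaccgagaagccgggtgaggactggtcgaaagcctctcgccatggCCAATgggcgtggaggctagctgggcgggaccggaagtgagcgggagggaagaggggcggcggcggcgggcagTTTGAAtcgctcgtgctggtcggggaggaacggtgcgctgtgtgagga
Kif23: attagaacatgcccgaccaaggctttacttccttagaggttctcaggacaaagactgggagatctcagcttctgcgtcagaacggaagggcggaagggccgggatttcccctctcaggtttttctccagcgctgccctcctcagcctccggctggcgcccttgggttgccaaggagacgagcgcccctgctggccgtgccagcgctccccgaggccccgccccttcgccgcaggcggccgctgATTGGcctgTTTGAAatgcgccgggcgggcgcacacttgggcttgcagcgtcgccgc

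In the Top2a window 6 CCAAT boxes and 2 CHR elements were found, in that of Mki67 3 and 2, in that of Cenpf 2 and 2, and in that of Kif23 1 and 1. A CHR element of Cenpf and that of Kif23 lay 2 bases past the start.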

How the data were processed

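The authors deposited raw UMI counts per gene and cell. Per the paper's methods and the submitters' processing notes they used Cell Ranger on mm10, and Seurat in R 4.1.2, and filtered cells at 25% mitochondrial reads and at 200 genes; the deposited percent of mitochondrial UMIs was not used further. Clusters and labels are the authors' own. Counts were summed per mouse and class (at least 10 cells; mice with at least 50 cells in all) and tested over all genes with edgeR 4.0.16 (TMM, filterByExpr, quasi-likelihood fit of 8 group means, Benjamini-Hochberg, threshold 0.05) in R 4.3.3, with DESeq2 1.42.0 as an alternative; the fits were tested on simulated data. CPM is UMIs of a gene over all UMIs of the class. Single values were tested by exact permutation over mice in Python 3.11.15 (numpy 2.4.6, pandas 2.3.3, scipy 1.17.1); figures used matplotlib 3.10.9. Share intervals are Clopper-Pearson.

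The members and lists were chosen with earlier results of these data known. Named are Mki67, Top2a, the 3 members with the most UMIs, members past an adjusted p of 0.05, the 3 leading members per cluster, the 2 other genes with the most UMIs per list, and 4 promoters. Exceptions are said to be named after their values were seen. The alternatives were DESeq2, no filter, the replicate block, at least 30 cells, conditions of the cell names, the shallow libraries or each mouse left out, means over cells, other cutoffs and gene lists, and thinning to 1000 or 500 UMIs; leaving out Cluster 17, and the shallow libraries in single-gene tests and shares, were added after seeing the data, as was the limit of 5 core genes.

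In each of the 16 mice the authors' batch is the same as the replicate number, which therefore pairs mice by batch. Deviations from the group means had a median correlation between conditions of 0.128 in all cells (11 of 21 pairs above 0.1) and 0.0464 in Clusters 6 and 10 (6 of 15). Doublets were not called or removed, and free RNA was not removed.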

Additional observations from a re-analysis of the deposited data

Results flagged for a closer look

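A mouse far from the others of its group is found by chance in about 1 in 20 groups, and 38 groups of 4 to 6 mice were examined for Mki67, Top2a, Stmn1, Hmgb2 and Pcna. That rate was not checked for groups in which 1 UMI is set against 0 in the other mice. In Clusters 6 and 10, WT 1 d replicate 1 stood above the 4 other injured WT mice with 27.7 CPM of Mki67 (2 UMIs; next 8.02), 41.6 CPM of Top2a (3 UMIs; next 1.63) and 263 CPM of Pcna (19 UMIs; next 63.5). In Clusters 2, 5 and 7, WT uninjured replicate 2 had 1.35 CPM of Mki67 and 1.35 CPM of Top2a (1 UMI each), and the 3 other uninjured mice had 0. In the same clusters WT 1 d replicate 1 had 33.6 CPM of Hmgb2 (2 UMIs; next 15.7), and cKO 1 d replicate 1 had 69.0 CPM of Pcna (3 UMIs; next 28.0). Of these 7 values, the 263 CPM of Pcna was above the floor of 3 counts in its mouse and the 6 others were at or under theirs, so no distance between mice can be read from those. Over all cells Hmgb2 in WT uninjured replicate 2 was far above the 3 other uninjured mice (181 CPM, 383 UMIs; next 53.0), and in cKO 7 d replicate 2 far above the 5 other injured cKO mice (125 CPM, 1128 UMIs; next 63.0), while WT 14 d replicate 1 had 112 CPM of Hmgb2.

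The genotypes differed in opposite directions between time points in 2 comparisons of Pcna, among times with 2 mice of each genotype, with both cKO mice on 1 side of both WT mice each time. Over all cells the difference of cKO minus WT was -19.0 CPM in uninjured mice and 17.2 CPM at 14 d. In Clusters 6 and 10 it was -11.8 CPM at 7 d and 25.1 CPM at 14 d. Times with a single mouse of a genotype were not searched, and cKO was under WT in some of them too. At 1 d Pcna had 78.0 and 42.8 CPM in cKO against 93.2 in WT over all cells, and 144 and 136 against 263 in Clusters 6 and 10, where the uninjured mice had 11.5 in cKO against 23.3 and 52.6 in WT. These differences between time points were not tested.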

How the results depend on the processing

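Of 745 alternative values of results with a test or a count of members, 720 kept their direction and side of the threshold, or a count within 1.5 times the original. Members called changed as follows. With no filter, edgeR called 2 members in all cells for cKO against WT at 7 d (Mki67 and Top2a; 0.269% of all genes called), 3 in Clusters 6 and 10 at 1 d (Pcna, Mcm5 and Mcm6; 0.59%), and 1 each, Stmn1 and lower, in Clusters 2, 5 and 7 at 1 d (0.243%) and in endothelial cells at 7 d (0.53%). In Clusters 6 and 10 at 1 d it called 0 with the conditions of the cell names and 0 without the 4 shallow libraries, and 0 to 1 with a mouse left out. With the replicate block it called 1 there (Pcna, log2 fold change 3.22, adjusted p = 0.00995), and the pairing changed no other call of a member; over all genes the block moved the number called from 0 to 22 at 7 d and from 0 to 17 at 14 d in all cells.

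Without Cluster 17 in all cells, chosen after seeing the data, injured minus uninjured was 2.25 CPM for Mki67 and 3.15 for Top2a, and cKO minus WT was -0.157 and -0.199; this cluster was formed on the same counts, so leaving it out selects on these genes. In Clusters 6 and 10, cKO minus WT turned from -5.95 to 0.319 CPM for Mki67 with means over cells. Without the 4 libraries that share barcodes, also chosen after seeing the data, it was 1.31 for Mki67 and 0.865 for Top2a, and injured minus uninjured for Top2a in Clusters 2, 5 and 7 was 1.33 (exact permutation p = 0.0485, not adjusted for the 12 tests). Each mouse had 0 to 3 UMIs of Top2a there, at or under its floor of 3 counts, so nothing is read from that p. Leaving out a mouse gave -7.29 to 1.16 CPM for Mki67 and -9.58 to 1.29 for Top2a in cKO minus WT in Clusters 6 and 10, and -8.89 to 4.38 for Top2a in all cells after injury. In all cells it gave 0.252 to 6.27 for Mki67 after injury, and 3.12 to 15.1 for Mki67 and 5.30 to 18.3 for Top2a in cKO minus WT. The causes were not tested.

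Differences in the share of cells with 2 core genes, which have no test, were 0.858 (injured minus uninjured) and 0.505 (cKO minus WT) percentage points in all cells, 3.16 and 1.53 in Clusters 6 and 10, and 0.294 and 0.00483 in Clusters 2, 5 and 7. They moved with 36 members in place of the core to 3.33 and 2.73 in all cells, 14.0 and 8.80 in Clusters 6 and 10, and 1.23 and 0.978 in Clusters 2, 5 and 7. Of 121 alternative values of these differences, 113 lay within 1 SD between mice of the original, but 13 of those 113 had the opposite sign, so the signs are not taken as stable. In Clusters 6 and 10 the first was 0.0565 with at least 5 core genes, and the second was -2.25 after thinning to 1000 UMIs and -0.654 after thinning to 500. In all cells the first was 0.442 and -0.153 after thinning to 1000 and to 500 UMIs, and -0.155 with at least 5 core genes, and the second -0.711 and -0.161 after thinning. Leaving out a mouse gave 0.470 to 1.48 for injured minus uninjured in all cells and 0.313 to 2.75 for cKO minus WT in Clusters 6 and 10. It gave -0.148 to 1.16 for cKO minus WT in all cells, with the sign turned without cKO 7 d replicate 2 (-0.0934) or WT 14 d replicate 1 (-0.148), and -0.122 to 0.132 in Clusters 2, 5 and 7, where it was negative without WT 1 d replicate 1 (-0.0426), cKO 1 d replicate 2 (-0.0284), WT 7 d replicate 1 (-0.0806), cKO 7 d replicate 2 (-0.122), WT 14 d replicate 1 (-0.0249) or cKO 14 d replicate 2 (-0.106). Within cell types most core genes had few UMIs per mouse, so the fits there say little about them.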

Other observations

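Of 76 other cell cycle genes listed, 75 were found. In the 5 comparisons of each of the 5 sets of cells edgeR called 0 of them, against 0% to 0.345% of all genes called. DESeq2 also called 0, against 1.01% of all genes in Clusters 6 and 10 at 1 d. With so few genes called, 0 calls among 75 genes say little about them. An unadjusted p under 0.05 was found in 58 of 960 tests (6.04%), near the 5.37% of the tests of all genes; in Clusters 6 and 10 at 1 d it was 9 of 38 (23.7%), against 13.8% of all genes. Genes of G2 and M followed the core, with 28 of 31 highest in Cluster 17 and a median of 35.3% of UMIs there; the exceptions included Anln, highest at 862 CPM in the oligodendrocyte Cluster 8, while Tubb4b, a tubulin, had 386 CPM in Cluster 17. Of S phase genes 16 of 17 were highest in Cluster 17, with a median of 9.14%, among them Pola1, the catalytic subunit of DNA polymerase alpha (148 CPM), and Slbp, which binds histone mRNA (134 CPM).

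Among genes that govern entry into the cycle, some were highest in Cluster 17 and others in clusters of several cell types. The share of all genes that are highest in Cluster 17 is not given. These counts, and those above of G2 and M genes and of S phase genes, are therefore a description only. Of the D cyclins and their kinases 2 of 6 were highest in Cluster 17, while Ccnd3 was highest in Cluster 16 (791 CPM) and Ccnd1 in the OPC Cluster 11 (346 CPM). Of the Cdk inhibitors 3 of 7 were highest in Cluster 17, while Cdkn1a and Cdkn1b were highest in Cluster 15, labelled as Schwann cells (520 and 490 CPM). Of E2F and pocket proteins 9 of 14 were highest in Cluster 17, while Rb1 was highest in the astrocyte Cluster 7 (296 CPM) and Rbl2 in the oligodendrocyte Cluster 4 (75.5 CPM).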
